A study of Homo sapiens with 21 samples.

Results

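KRT23, ADORA1, RAPGEF3 and STAC2 are 4 of the 16553 genes counted in AU565, an established line of human breast cancer cells in which ERBB2 is amplified. They were chosen by their measured log2 fold changes after 24 h of trastuzumab in flat culture, so their values in that comparison describe the choice and carry no test. Among genes that edgeR called in that comparison and that averaged at least 1 CPM (read counts scaled to the size of each library) in either group, KRT23 ranked 1, ADORA1 3 and RAPGEF3 4 of 1774 rises, and STAC2 ranked 12 of 1391 falls. The 4 genes are followed here through all 7 groups, with attention to their level 96 h after the exposure and to a later exposure of cells that had been exposed before.

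All 21 libraries came from AU565, whose genotype is labelled WT, in 7 groups of 3, and total RNA was sequenced. Untreated monolayers were the flat cultures without antibody, and the labels give no time for them. Acutely exposed monolayers received trastuzumab at 20 µg/ml for 24 h. Primed monolayers received the same exposure and were kept for 96 h more. Untreated aggregates were grown in 3D for 96 h in a liquid overlay with 5% matrigel, without antibody. Primed aggregates came from cells exposed as a monolayer (20 µg/ml, 24 h) and then grown in 3D for 96 h. Treated aggregates were grown for 96 h and then exposed at 50 µg/ml for 24 h. Primed and treated aggregates received both exposures. Treated aggregates of either kind were therefore 24 h older than the untreated and primed ones, and the 2 exposures differed in dose. The labels do not say whether the antibody was removed before the 96 h that followed the first exposure, nor whether replicates were separate cultures, and p-values here measure only how far these samples spread, which may be technical.

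Trastuzumab is an antibody that binds HER2, the receptor tyrosine kinase encoded by ERBB2, and lowers signalling from it to the PI3K and MAP kinase pathways. The 4 genes do not belong to a common pathway. ADORA1 encodes the adenosine A1 receptor, which couples to inhibitory G proteins and lowers cyclic AMP. RAPGEF3 encodes EPAC1, an exchange factor that is switched on by cyclic AMP and activates the small GTPases of the RAP family, which act in cell adhesion. STAC2 encodes an adaptor with an SH3 domain that binds voltage-gated calcium channels. KRT23 encodes a type I keratin, a subunit of the intermediate filaments of epithelial cells.

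Total counts ran from 15005070 to 26921113 per library. The 10 markers of luminal mammary epithelium were all counted, at summed levels of 12192 to 19385 CPM over the 21 libraries. By markers of other tissues, the libraries fell into 2 sets. In the primed monolayers and both groups of treated aggregates (9 libraries), the 12 kidney markers summed to 10.5 to 45.0 CPM, against 1.95 to 3.22 CPM in the other 12. The 11 brain markers in the table summed to 16.0 to 48.7 CPM in the 9 and to 6.74 to 20.7 CPM in the 12. The 12 libraries had more of the 8 melanocyte markers (18.1 to 116 CPM, against 1.64 to 4.31) and of the mesenchymal markers (22.4 to 49.1 CPM, against 5.43 to 11.5). The defining markers UMOD (kidney) and SNAP25 (neurons) reached at most 0.0588 and 0.507 CPM in the 12, and TYRP1 (melanocytes) and POSTN (mesenchyme) at most 0.256 and 0.138 CPM in the 9. Any comparison of a group of the 9 with a group of the 12 also compares these sets, and the 2 cannot be told apart there. Within the 12, the cardiac myosin MYH7 was at 20.6 CPM or more in 6 libraries: untreated monolayer replicates 1 and 2, acutely exposed monolayer replicates 2 and 3, and untreated aggregate replicates 1 and 2.

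In the RefSeq annotation of GRCh38.p14, ADORA1 (Entrez 134) lies on chromosome 1 from 203127726 to 203167405, and RAPGEF3 (Entrez 10411) on chromosome 12 from 47734363 to 47758880. KRT23 (Entrez 25984) lies on chromosome 17 from 40922700 to 40937646. STAC2 (Entrez 342667) is on the same chromosome from 39210541 to 39225945, 1.70 Mb from KRT23 and 462 kb from ERBB2. RAPGEF3 overlaps SLC48A1, a haem transporter gene on the opposite strand, by 4947 bases, and since the strand of counting is not given, reads from that stretch cannot be assigned to either gene. SLC48A1 stood at 9.35, 18.5 and 30.5 CPM in untreated, acutely exposed and primed monolayers, so its level in primed monolayers was above that in exposed ones, unlike that of RAPGEF3. Like RAPGEF3 it was higher in exposed than in untreated monolayers, and also higher in untreated aggregates (29.6 CPM). The part of shared reads in either gene was not tested. KRT23 overlaps LOC107985072, a long non-coding RNA gene that was not analysed here, by 9044 bases, and reads from that stretch cannot be assigned with certainty either.

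RefSeq's promoter table held 2 of the 4 genes, ADORA1 and RAPGEF3. Their 250 bases before the annotated start are shown because both genes were higher after the exposure and higher in 3D. Capitals mark the SP1 box GGGCGG on either strand, which occurs 2 times in the ADORA1 stretch (chr1:203127476-203127725, plus strand, 63.2% G and C) and 3 times in the RAPGEF3 stretch (chr12:47758881-47759130, minus strand, 72.8% G and C).
ADORA1: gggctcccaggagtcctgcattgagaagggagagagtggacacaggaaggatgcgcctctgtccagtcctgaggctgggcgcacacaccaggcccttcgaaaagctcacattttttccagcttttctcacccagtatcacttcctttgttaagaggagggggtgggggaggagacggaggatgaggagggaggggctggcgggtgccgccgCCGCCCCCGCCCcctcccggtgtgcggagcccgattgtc
RAPGEF3: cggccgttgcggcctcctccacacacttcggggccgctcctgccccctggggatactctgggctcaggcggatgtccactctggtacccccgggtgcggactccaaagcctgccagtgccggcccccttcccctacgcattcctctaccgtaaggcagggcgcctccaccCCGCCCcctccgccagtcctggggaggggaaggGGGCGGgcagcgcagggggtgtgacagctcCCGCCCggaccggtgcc
The boxes start 39 and 33 bases before the start of ADORA1 and 80, 47 and 17 bases before that of RAPGEF3. Of 35116 promoters of this length, 42.6% hold such a box, so its presence in both is common. Neither stretch holds the cyclic AMP response element TGACGTCA (1.65% of promoters), the AP-1 motif TGANTCA (6.57%), the FOXO motif GTAAACA (2.98%), the ETS motif CCGGAAGT (3.42%) or the AP-2 motif GCCNNNGGC (19.8%), each searched on both strands.

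In monolayers exposed for 24 h, the transcripts of the receptor, the exchange factor and the keratin were several times as abundant as in untreated ones, and those of the adaptor were less abundant. These values chose the genes, and edgeR called 20.2% of the 15969 tested genes in this comparison at an adjusted p under 0.05 (11.3% higher and 8.91% lower). ADORA1 was at 3.15, 3.98 and 4.21 CPM in the untreated libraries and at 16.5, 19.9 and 17.9 CPM in the exposed ones, 4.74-fold higher (log2 fold change 2.24, SE 0.21). RAPGEF3 was at 7.02, 7.22 and 9.01 CPM untreated and at 35.9, 34.4 and 38.0 CPM exposed, 4.65-fold higher (log2 fold change 2.22, SE 0.095). For both genes every exposed library lay far above every untreated one. KRT23 had few reads before exposure, with 13, 20 and 15 (0.730, 0.780 and 0.693 CPM), and was at 5.05, 5.54 and 5.92 CPM after it, 7.44-fold higher (log2 fold change 2.90, SE 0.22). STAC2 went the other way, from 16.3, 16.1 and 18.6 CPM to 6.43, 5.88 and 5.96 CPM, 2.80-fold lower (log2 fold change -1.48, SE 0.15). No untreated library overlapped an exposed one for any of the 4 genes. The share of all tested genes without overlap is not given, so lack of overlap is a description only, here and in what follows. Without the 6 libraries that carried MYH7, the log2 fold changes of ADORA1 and RAPGEF3 were 1.97 and 1.99, with 1 library left in each group.

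After 96 h more in flat culture the 4 genes stood in 3 different states. STAC2 was near its untreated level, RAPGEF3 and KRT23 lay between the untreated and the exposed level, and ADORA1 was higher than at 24 h. These values share libraries with the choice of the genes and are given as a description. No untreated monolayers are labelled as kept for the same 96 h, so the exposure and the longer culture cannot be told apart here. The primed monolayers also belong to the 9 libraries with kidney and brain transcripts, and edgeR called 65.3% of tested genes between them and untreated monolayers (33.7% higher and 31.6% lower) and 62.4% between them and acutely exposed ones (32.3% higher and 30.1% lower).
STAC2 was at 15.9, 15.5 and 14.4 CPM in primed monolayers, a log2 difference of -0.16 from untreated monolayers (95% confidence interval -0.43 to 0.12) and of 1.33 from acutely exposed ones. Its 3 primed libraries lay just under the lowest untreated library and far above the exposed ones. RAPGEF3 was at 17.4, 15.7 and 18.1 CPM, 2.20-fold above untreated monolayers (log2 fold change 1.14, SE 0.11) and 2.12-fold below exposed ones. KRT23 was at 3.97, 3.13 and 2.85 CPM, 4.45-fold above untreated monolayers (log2 fold change 2.16, SE 0.25) and 1.67-fold below exposed ones. For both genes the primed libraries lay between the other groups without overlap.
ADORA1 stood at 44.7, 42.3 and 37.2 CPM in primed monolayers, its highest group mean in the study. That was 10.8-fold above untreated monolayers (log2 fold change 3.44, SE 0.20) and 2.29-fold above exposed ones. ADORA1 is also expressed in brain. The summed brain markers were at 16.0 to 19.5 CPM in primed, 12.5 to 14.2 CPM in acutely exposed and 13.8 to 20.7 CPM in untreated monolayers. SNAP25 alone was at 4.36 to 6.51 CPM in primed and at most 0.507 CPM in both other groups, and GAP43 was at 0 in all acutely exposed libraries. The part of these transcripts in the ADORA1 value was not tested.

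**Figure D1:**
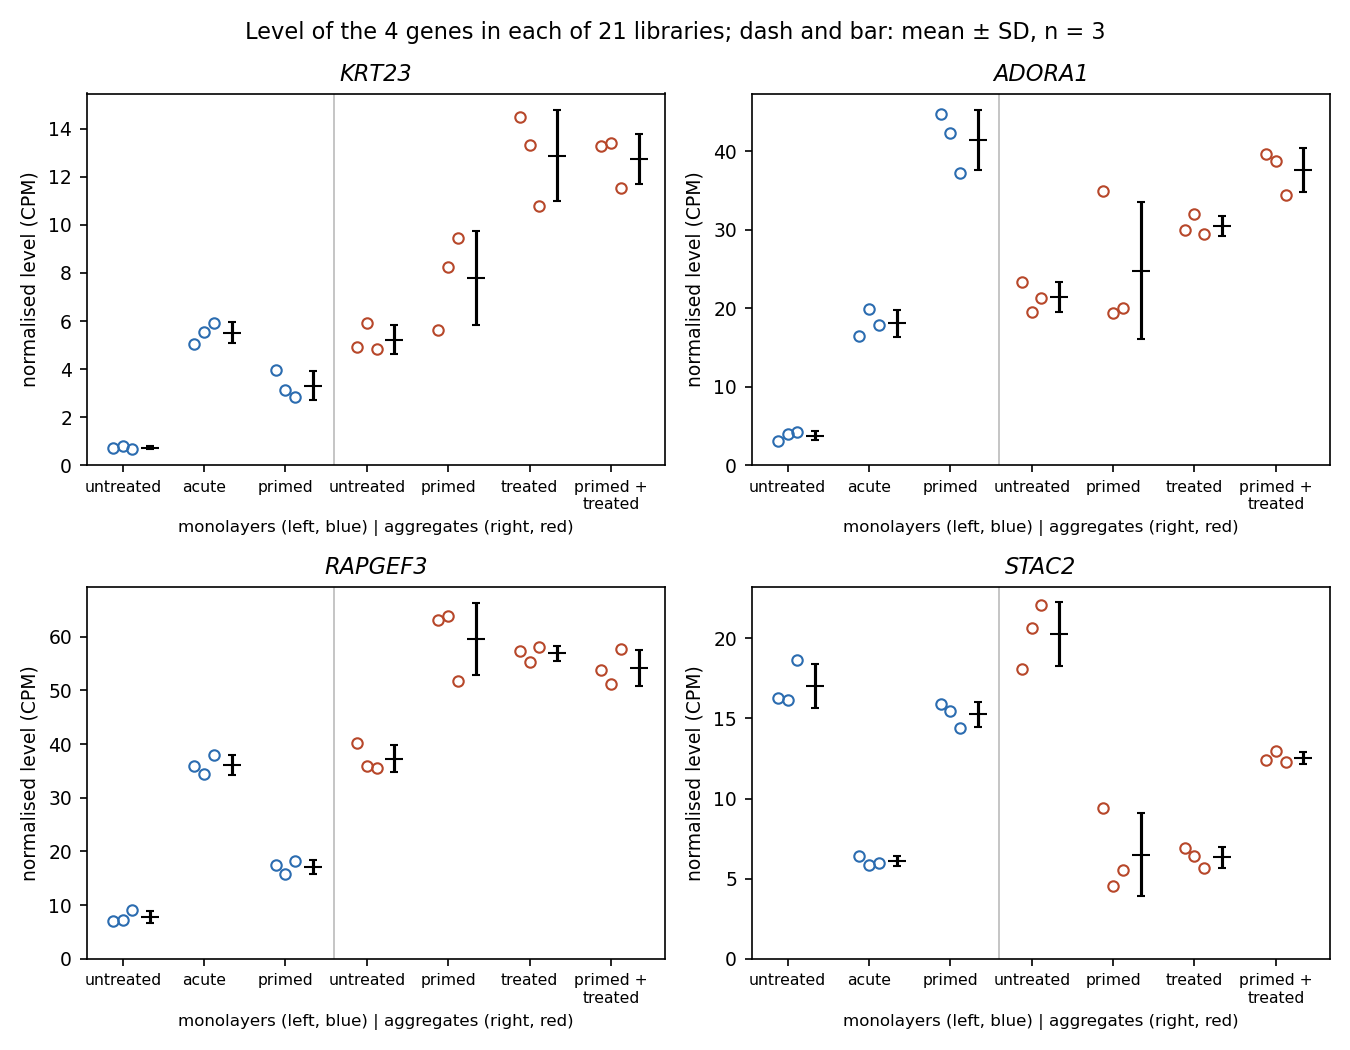
Normalised level (CPM, linear axes from 0) of KRT23, ADORA1, RAPGEF3 and STAC2 in each of the 21 libraries (circles, blue for monolayers and red for aggregates), with the group mean and SD (dash and bar, n = 3). STAC2 in primed monolayers is near its untreated level while ADORA1 has its highest group mean there, and primed aggregate replicate 1 stands apart for ADORA1 (34.9 CPM) and STAC2 (9.41 CPM).

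Without antibody, aggregates grown in 3D had levels of KRT23, ADORA1 and RAPGEF3 close to those of exposed monolayers. In untreated aggregates KRT23 was at 4.94, 5.92 and 4.82 CPM, ADORA1 at 23.3, 19.5 and 21.3 CPM, and RAPGEF3 at 40.1, 36.0 and 35.6 CPM. For all 3 genes these libraries overlapped the acutely exposed monolayers and lay far above the untreated ones, by 7.06-fold, 5.59-fold and 4.80-fold. STAC2 did not follow them, at 18.1, 20.7 and 22.1 CPM, 1.19-fold above untreated monolayers with overlapping libraries (log2 fold change 0.25, 95% confidence interval -0.013 to 0.52). This comparison uses the untreated monolayers again and is a description, and edgeR called 64.1% of tested genes in it (32.9% higher and 31.1% lower). Matrigel is labelled only for aggregates, and the time of the untreated monolayers is not given. The form of culture, matrigel and time in culture therefore cannot be told apart in it. In bulk RNA, fewer cells expressing a gene and less RNA per cell cannot be told apart, here and in what follows.

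The genes were chosen on changes in monolayers, so comparisons among aggregates were tested for them. Earlier results of these data were known at that choice, so these tests may not be wholly independent of it. Aggregates from cells exposed before aggregation were compared with untreated ones of the same age, which asks what remained 96 h after the exposure in 3D. Both groups belong to the 12 libraries, but the melanocyte markers were at 58.2 to 96.9 CPM in primed and 18.1 to 25.3 CPM in untreated aggregates and the brain markers at 10.9 to 15.5 and 6.74 to 10.1 CPM, and their part in the values below was not tested. Of the 4 genes 3 passed, RAPGEF3 and KRT23 higher and STAC2 lower, where edgeR called 21.2% of all tested genes (11.5% higher and 9.66% lower).
STAC2 fell from 18.1, 20.7 and 22.1 CPM to 9.41, 4.52 and 5.54 CPM, a 3.16-fold fall (log2 fold change -1.66, SE 0.15, edgeR adjusted p = 1.14e-09). Each primed library was below each untreated one, so the calcium channel adaptor was low 96 h after the exposure in 3D, where in flat culture it was near its untreated level. The difference between these culture forms was not tested. RAPGEF3 rose from 40.1, 36.0 and 35.6 CPM to 63.1, 63.8 and 51.8 CPM (log2 fold change 0.67, SE 0.079, edgeR adjusted p = 1.19e-07), again without overlap.
KRT23 was at 5.62, 8.27 and 9.45 CPM in primed aggregates and rose by 0.58 on the log2 scale (SE 0.16, edgeR adjusted p = 0.0086), with replicate 1 inside the untreated range. Without primed replicate 3 its change was 0.40 and no longer passed (edgeR adjusted p = 0.114), and without the libraries that carried MYH7 it was 0.70 (edgeR adjusted p = 0.0653), within a range of 0.000453 to 0.114 over all alternatives.
ADORA1 was at 34.9, 19.5 and 20.0 CPM, where replicates 2 and 3 were close to the untreated aggregates and replicate 1 was well above them. Its log2 fold change of 0.21 did not pass (95% confidence interval -0.14 to 0.56, edgeR adjusted p = 0.435), and without replicate 1 it was -0.12. Replicate 1 also had the highest STAC2 and the lowest KRT23 of the 3 primed libraries.

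The response of aggregates that had not been exposed before was read from treated against untreated aggregates, which also differ by 24 h of age and by library set. All 4 genes changed, each in the direction seen in flat culture, where edgeR called 36.7% of tested genes (18.8% higher and 17.9% lower).
STAC2 was at 6.92, 6.42 and 5.64 CPM in treated aggregates, 3.21-fold below untreated ones (log2 fold change -1.68, SE 0.14, edgeR adjusted p = 1.02e-10). KRT23 was at 14.5, 13.3 and 10.8 CPM and rose 2.45-fold (log2 fold change 1.29, SE 0.15, edgeR adjusted p = 2.90e-08). Both genes separated all treated from all untreated libraries by a wide gap.
RAPGEF3 rose to 57.3, 55.3 and 58.1 CPM (log2 fold change 0.61, SE 0.078, edgeR adjusted p = 1.39e-07). ADORA1 rose to 30.0, 31.9 and 29.5 CPM (log2 fold change 0.51, SE 0.16, edgeR adjusted p = 0.0187). Their libraries did not overlap either. In untreated aggregates RAPGEF3 and ADORA1 were already 4.80-fold and 5.59-fold above untreated monolayers, and KRT23 was 7.06-fold above them. The ADORA1 call was lost without untreated replicate 2 (0.44, edgeR adjusted p = 0.0833) or 3 (0.50, 0.0573), without treated replicate 2 (0.48, 0.0587) and without the libraries that carried MYH7 (0.51, 0.247), and its adjusted p ran from 0.000121 to 0.247 over all alternatives. The summed brain markers were at 43.6 to 48.7 CPM in treated and at 6.74 to 10.1 CPM in untreated aggregates, and their part in the ADORA1 value was not tested.

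**Figure D2:**
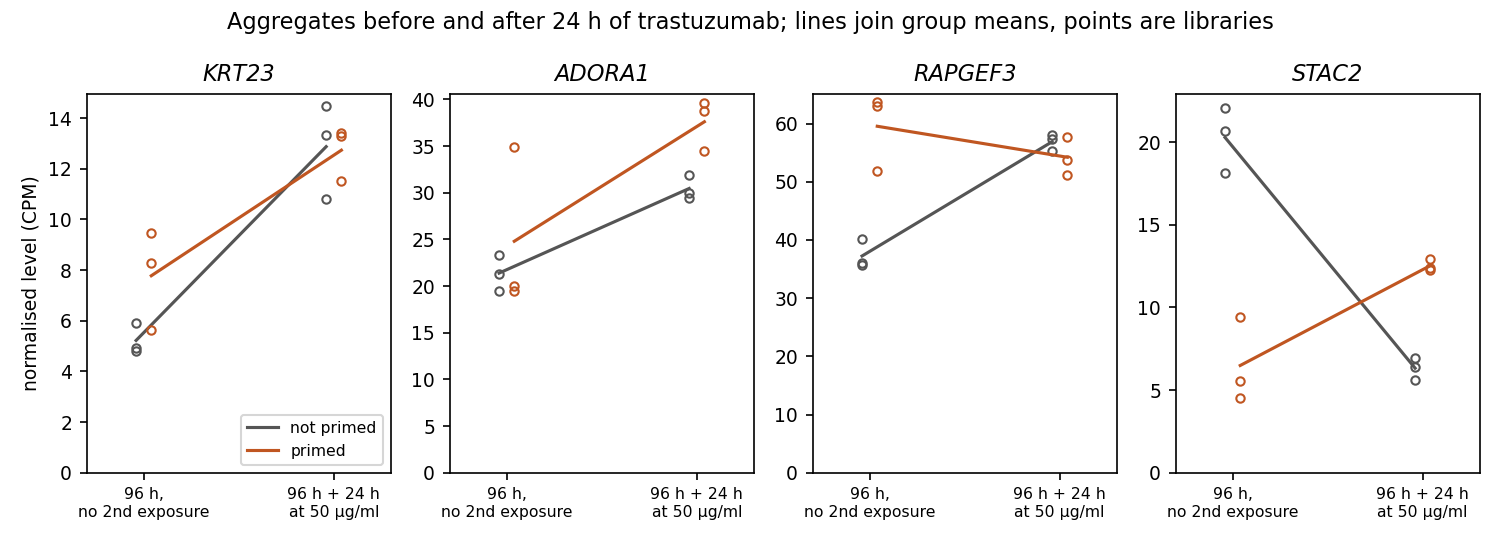
Normalised level (CPM, linear axes from 0) of the 4 genes in aggregates without and with 24 h of trastuzumab at 50 µg/ml, for cells not exposed before (grey) and primed cells (orange), where points are libraries and lines join group means. The grey and orange lines cross for STAC2, which went from a mean of 20.3 to 6.33 CPM in unprimed and from 6.49 to 12.5 CPM in primed aggregates.

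The later exposure of primed aggregates gave another picture, in which STAC2 moved in the opposite direction and RAPGEF3 did not pass. This response was read from primed and treated against primed aggregates, a pair that also crosses the library sets and differs by 24 h, and edgeR called 29.8% of tested genes in it (14.9% higher and 14.8% lower). STAC2 rose from 9.41, 4.52 and 5.54 CPM to 12.4, 12.9 and 12.3 CPM (log2 fold change 0.96, SE 0.15, edgeR adjusted p = 9.62e-06). RAPGEF3, already high in primed aggregates, was at 53.7, 51.2 and 57.8 CPM after the exposure, with overlapping libraries (log2 fold change -0.13, 95% confidence interval -0.29 to 0.021, edgeR adjusted p = 0.195). Without primed replicate 3 its change was -0.22 and passed (edgeR adjusted p = 0.0315, range over alternatives 0.0315 to 0.536).
KRT23 rose to 13.3, 13.4 and 11.5 CPM (log2 fold change 0.70, SE 0.14, edgeR adjusted p = 0.00032), and no library overlapped. ADORA1 rose to 39.6, 38.7 and 34.5 CPM (log2 fold change 0.61, SE 0.16, edgeR adjusted p = 0.00645), overlapping primed replicate 1. The summed brain markers were at 36.1 to 47.4 CPM in primed and treated and at 10.9 to 15.5 CPM in primed aggregates, and their part in this rise was not tested. Without primed replicate 1 the ADORA1 change was 0.93, and in a fit of these groups alone it was 0.61 and did not pass (edgeR adjusted p = 0.138, range over alternatives 4.22e-09 to 0.138).

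Whether the later response differed from the first one was tested as the difference of the 2 log2 fold changes. Both pairs cross from the 12 libraries to the 9 and share the 24 h difference in age. The markers of other tissues, whose origin the labels do not give, did not shift by equal amounts. The melanocyte markers went from 18.1 to 25.3 CPM down to 2.89 to 4.01 CPM in the unprimed pair and from 58.2 to 96.9 CPM down to 3.59 to 4.31 CPM in the primed pair. MYH7 was at 29.9 and 20.6 CPM in untreated replicates 1 and 2 and at most 0.0592 CPM in primed aggregates. The part of these transcripts in the differences was not tested. The test passed for STAC2 and RAPGEF3, while edgeR called 12.5% of tested genes (5.05% higher and 7.42% lower).
For STAC2 the difference was 2.64 (SE 0.21, 95% confidence interval 2.22 to 3.06, edgeR adjusted p = 4.20e-10), from a log2 fold change of -1.68 to one of 0.96. For RAPGEF3 it was -0.74 (SE 0.11, 95% confidence interval -0.96 to -0.52, edgeR adjusted p = 9.16e-06), from a rise of 0.61 to a change that did not pass. Both calls held in each alternative that was run, with any 1 library left out and without the libraries that carried MYH7 included.
The KRT23 rise was smaller in primed aggregates by 0.60 on the log2 scale, which just missed the threshold (SE 0.21, 95% confidence interval of the difference -1.02 to -0.17, edgeR adjusted p = 0.0584). Without primed replicate 1, untreated replicate 2 or treated replicate 3 it passed, at -0.77, -0.69 and -0.71 (edgeR adjusted p = 0.00593, 0.0472 and 0.0273, range over alternatives 0.00593 to 0.235). The ADORA1 rises of 0.51 and 0.61 differed by 0.097 (SE 0.22, 95% confidence interval -0.38 to 0.57, edgeR adjusted p = 0.843). That value rests on primed replicate 1, without which the later ADORA1 response was larger than the first by 0.42 (edgeR adjusted p = 0.0264, range over alternatives 0.0264 to 0.956).

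**Figure D3:**
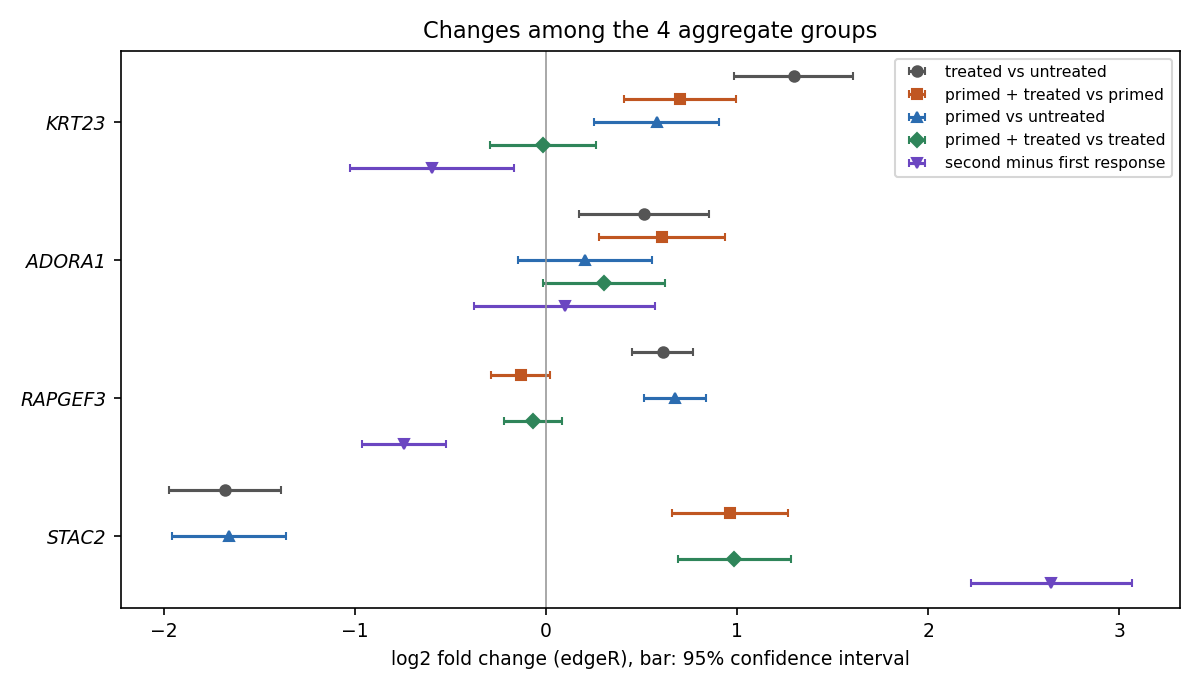
Log2 fold changes (edgeR, symbols) with 95% confidence intervals (bars) for 5 comparisons among the aggregate groups, for each of the 4 genes, where the vertical line marks no change. The difference between the later and the first response is 2.64 for STAC2 and -0.74 for RAPGEF3, and its interval includes 0 for ADORA1.

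After the antibody in 3D, primed and unprimed aggregates of the same age and library set differed in 1 of the 4 genes by the test. That gene was STAC2, 1.98-fold higher in primed and treated (12.4, 12.9 and 12.3 CPM) than in treated aggregates (6.92, 6.42 and 5.64 CPM; log2 fold change 0.99, SE 0.14, edgeR adjusted p = 2.41e-05). In this comparison edgeR called 7.98% of tested genes, 3.18% higher and 4.80% lower. KRT23 differed by -0.017 (95% confidence interval -0.29 to 0.26, edgeR adjusted p = 0.965) and RAPGEF3 by -0.069 (95% confidence interval -0.22 to 0.083, edgeR adjusted p = 0.671). ADORA1 was higher in every primed and treated library than in every treated one, but its difference of 0.30 did not pass (95% confidence interval -0.014 to 0.62, edgeR adjusted p = 0.265). It passed in a fit of these 2 groups alone (0.30, edgeR adjusted p = 0.00215, range over alternatives 0.00215 to 0.476).
Against untreated aggregates, the 2 exposures together left KRT23 higher by 1.28 (edgeR adjusted p = 3.97e-08), ADORA1 by 0.81 (edgeR adjusted p = 0.000602) and RAPGEF3 by 0.54 (edgeR adjusted p = 1.35e-06) on the log2 scale. STAC2 stayed lower by 1.62-fold (log2 fold change -0.70, SE 0.13, edgeR adjusted p = 0.000108). That pair also crosses the library sets, and edgeR called 35.5% of tested genes in it (17.6% higher and 17.9% lower). Without the libraries that carried MYH7 the ADORA1 change was 0.81 but did not pass (edgeR adjusted p = 0.074, range over alternatives 2.08e-06 to 0.074).

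Ordered by mean level over the 7 groups, the 4 genes gave 4 orders. KRT23 ran from 0.734 ± 0.0435 CPM (SD, n = 3) in untreated monolayers to 12.9 ± 1.89 CPM in treated aggregates, and neighbours in its order overlapped between untreated aggregates, acutely exposed monolayers and primed aggregates, and between both groups of treated aggregates. RAPGEF3 ran from 7.75 ± 1.10 CPM in untreated monolayers to 59.5 ± 6.73 CPM in primed aggregates, and its 3 exposed aggregate groups overlapped. ADORA1 ran from 3.78 ± 0.559 CPM in untreated monolayers to 41.4 ± 3.82 CPM in primed monolayers, whose libraries overlapped those of primed and treated aggregates (37.6 ± 2.77 CPM). Neighbours in the ADORA1 order also overlapped from acutely exposed monolayers through untreated and primed to treated aggregates. STAC2 was lowest in acutely exposed monolayers (6.09 ± 0.296 CPM), treated aggregates (6.33 ± 0.649 CPM) and primed aggregates (6.49 ± 2.58 CPM), which overlapped, and highest in untreated aggregates (20.3 ± 2.01 CPM).
As a description over the 21 libraries, which share groups and library sets, the log2 levels of KRT23 and RAPGEF3 had a Pearson correlation of 0.944, KRT23 and ADORA1 of 0.792, and ADORA1 and RAPGEF3 of 0.697. STAC2 correlated with the 3 at -0.522, -0.204 and -0.565.

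Around ADORA1, 27 genes of adenosine production, uptake, breakdown and signalling were tested. In acutely exposed monolayers 5 were higher and 2 lower, with a median log2 fold change of 0.036 against -0.017 over all tested genes. In treated aggregates 8 were higher and 3 lower (median 0.052, all genes 0.00083), and in primed aggregates 3 were higher and 3 lower (median 0.018, all genes -0.00020). The called share of the list was 25.9%, 40.7% and 22.2% in these comparisons, near the 20.2%, 36.7% and 21.2% of all tested genes. NT5E, the cell surface enzyme that makes adenosine from AMP, had the smallest p of the list in each of these. It rose by 0.92 in acutely exposed monolayers (edgeR adjusted p = 1.3e-09), by 0.44 in primed aggregates (0.00045) and by 0.99 in treated aggregates (3.5e-10), from 44.5 CPM in untreated to 88.5 CPM in treated aggregates. In primed and treated aggregates it stood at 109 CPM, higher by 0.29 than in treated ones (edgeR adjusted p = 0.015), and it was the 1 gene of the 27 that passed there. ACP3, a phosphatase that also releases adenosine, rose by 1.29 in acutely exposed monolayers and by 1.08 in treated aggregates. The 3 lower genes in primed aggregates were ADA, which breaks adenosine down, PNP and ENTPD1. They fell by 0.56 (edgeR adjusted p = 0.0064), 0.22 (0.0077) and 0.27 (0.015).

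Around RAPGEF3, 55 genes of cyclic AMP and RAP signalling moved both ways. Counts were 8 higher and 5 lower in acutely exposed monolayers (median -0.0087), 9 and 9 in primed aggregates (median 0.0014), 13 and 12 in treated aggregates (median 0.048) and 11 and 12 after the later exposure of primed ones (median 0.0089). That is 23.6%, 32.7%, 45.5% and 41.8% of the list, against 20.2%, 21.2%, 36.7% and 29.8% of all tested genes. PDE4B, a phosphodiesterase that degrades cyclic AMP, rose by 1.03 in acutely exposed monolayers (edgeR adjusted p = 4.8e-13), and ADCY9, an adenylate cyclase that makes it, by 0.51 (6.8e-10). ADCY9 also rose in primed aggregates (0.42, edgeR adjusted p = 1.7e-07) and in treated aggregates (0.45, 8.4e-09). PKIA, an inhibitor of the cyclic AMP-dependent protein kinase, fell by 0.84 in primed and by 1.22 in treated aggregates (edgeR adjusted p = 1.7e-07 and 1.3e-11). The difference between the later and the first response passed in 6 of the 55 upward and in 5 downward (20.0%, against 12.5% of all tested genes). PKIA was among them (1.16, edgeR adjusted p = 5.6e-07) with levels of 37.4, 20.8, 16.0 and 20.0 CPM in untreated, primed, treated, and primed and treated aggregates. PDE4B differed by -0.74 (2.6e-06), with 34.3, 42.4, 44.0 and 32.6 CPM in the same order, and ADCY9 by -0.31 (0.0024).

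Around STAC2, 27 genes of the STAC family, calcium channels and their partners were tested. In acutely exposed monolayers 7 were higher and 1 lower, although the list's median was -0.10. In treated aggregates 6 were higher and 3 lower (median 0.21), and in primed aggregates 3 and 3 (median -0.070). The called shares were 29.6%, 33.3% and 22.2%, against 20.2%, 36.7% and 21.2% of all tested genes. STAC, the paralogue of STAC2, was at 2.61 CPM in untreated and 2.67 CPM in acutely exposed monolayers, where STAC2 was lower. In aggregates STAC went from 10.9 CPM untreated to 5.96 CPM treated (log2 fold change -0.87, edgeR adjusted p = 3.6e-06) and was at 8.24 CPM primed and 8.08 CPM primed and treated. Its later response exceeded the first by 0.84 (edgeR adjusted p = 0.0022), in the same direction as that of STAC2. JPH2, a junctophilin that ties the cell membrane to calcium stores, had a difference of 0.78 (edgeR adjusted p = 4.1e-06), and the calcium channel CACNA1H one of -0.37 (0.013). JPH1 fell by 0.74 in acutely exposed monolayers (edgeR adjusted p = 1.5e-13), and the channel CACNA1D rose there by 0.64 (2.6e-09).

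Among 22 other keratins tested, 4 were higher and 2 lower in acutely exposed monolayers (median 0.25), with KRT80 (0.62, edgeR adjusted p = 7.9e-09) and KRT7 (0.49, 8.2e-05) leading. In primed aggregates, where KRT23 itself was higher, 0 were higher and 6 lower in edgeR (median -0.325). At an unadjusted p under 0.05, and in DESeq2 and limma voom, 0 were higher as well. These included the luminal keratins KRT19 (-0.47, edgeR adjusted p = 1.7e-06) and KRT8 (-0.26, 0.001), and KRT15 (-0.80, 4.1e-05). In treated aggregates 5 were higher and 5 lower (median -0.014), and after the later exposure 8 and 2 (median 0.34). The called share of the keratins was 27.3% in acutely exposed monolayers and in primed aggregates and 45.5% in both treated comparisons, against 20.2%, 21.2%, 36.7% and 29.8% of all tested genes. The difference between the responses passed in 3 upward and 1 downward, among them KRT15 (0.86, edgeR adjusted p = 0.0011) and KRT4 (-0.44, 0.0078). KRT17 differed by 2.17 (edgeR adjusted p = 0.0018) at levels of 0.546 to 1.76 CPM, and its near-identical copies make its counts uncertain.

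The chromosomal neighbours were read because STAC2 lies near ERBB2. Of the 24 tested genes within 500 kb of STAC2, 4 were higher and 1 lower in acutely exposed monolayers, with log2 fold changes from -0.27 to 0.95. In treated aggregates 2 were higher and 5 lower, from -0.49 to 1.62 with a median of 0.036, so none fell as far as STAC2. The called shares of 20.8% and 29.2% stand against 20.2% and 36.7% of all tested genes. Between primed and treated and treated aggregates, where STAC2 passed, 0 of the 24 passed in edgeR (the smallest adjusted p was 0.058, for RPL23), 3 were higher and 1 lower at an unadjusted p under 0.05, and DESeq2 called 1 higher and 1 lower and limma voom 1 higher. Over all tested genes edgeR called 7.98% there, a share too low for 0 of 24 to set the neighbours apart. ERBB2, the target of the antibody, was higher in acutely exposed monolayers (0.36, edgeR adjusted p = 3.0e-06), primed aggregates (0.42, 4.7e-07) and treated aggregates (0.54, 6.7e-10), in each case opposite to STAC2. ERBB2 was at 6189, 8274, 8992 and 8198 CPM in untreated, primed, treated, and primed and treated aggregates. Its later response was below the first by 0.55 (log2 difference -0.55, edgeR adjusted p = 2.7e-06). It was the 1 neighbour of STAC2 in which that difference passed (4.17% of the 24, against 12.5% of all tested genes).
Near ADORA1, 14 genes were tested, of which 3 were higher and 4 lower in treated aggregates (50.0%, against 36.7% of all tested genes). ATP2B4, a calcium pump, rose by 0.68 (edgeR adjusted p = 2.0e-11), and PPFIA4, a scaffold protein of the liprin family, fell by 1.10 (1.3e-09) and differed between the responses by 1.40 (1.3e-07). Near RAPGEF3, 5 of 10 were higher and 1 lower in acutely exposed monolayers (60.0%, against 20.2% of all tested genes). Among them were SLC48A1 (0.98, edgeR adjusted p = 2.3e-11), which overlaps RAPGEF3 and may share its reads, and the vitamin D receptor gene VDR (0.65, 3.0e-09). In treated aggregates 4 were higher and 2 lower (60.0%, against 36.7%), with the histone deacetylase HDAC7 up by 0.70 (2.3e-09). TMEM106C, a membrane protein gene there, differed between the responses by 0.34 (0.0021). Near KRT23, 2 of 8 were higher and 1 lower in treated aggregates (37.5%, against 36.7%), with the focal adhesion protein TNS4 up by 0.73 (3.2e-12).

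**Figure D4:**
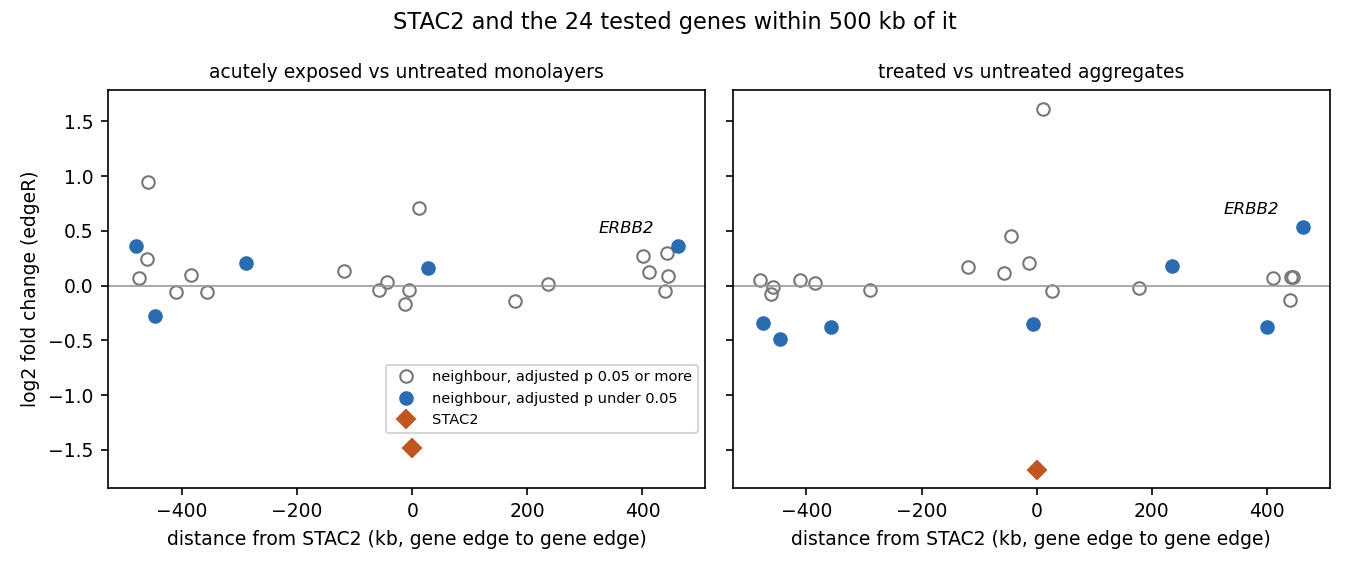
Log2 fold change (edgeR) of STAC2 (diamond) and of the 24 tested genes within 500 kb of it (circles, filled where the adjusted p was under 0.05) against their distance from it in kb, in acutely exposed against untreated monolayers (left) and treated against untreated aggregates (right). STAC2 lies at -1.48 and -1.68, below every neighbour, and ERBB2 at 0.36 and 0.54. The left comparison is the one that chose STAC2 for its change, so its low place there describes the choice.

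The genes with the most similar pattern were taken by Pearson correlation of log2 CPM over the 21 libraries among 11079 genes, as a description. For RAPGEF3 these were ITPRIPL2 (0.981), B4GALNT3 (0.979), a glycosyltransferase, and INPP4B (0.978), a phosphatase acting on PI3K lipids. INPP4B went from 13.7 CPM in untreated to 29.2 CPM in acutely exposed and 21.1 CPM in primed monolayers, the same order as RAPGEF3. For KRT23 they were TSPAN9 (0.959), the metallothionein MT2A (0.956) and the AP-1 subunit JUNB (0.952), with MT2A at 9.27 CPM in untreated monolayers and 187 CPM in treated aggregates. ADORA1 was most like PTGES (0.967), a prostaglandin E synthase, TGFBI (0.961), a matrix protein, and EEIG1 (0.961). PTGES, like ADORA1, was higher in primed (181 CPM) than in acutely exposed monolayers (143 CPM). STAC2 had no gene above 0.848, its highest value being with NAE1, a subunit of the NEDD8-activating enzyme, followed by LTV1 (0.815) and TOR3A (0.802). Over the 7 group means, 2 of 3 genes stayed among the nearest for KRT23 and STAC2, 3 of 3 for RAPGEF3 and 1 of 3 for ADORA1.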

How the data were processed

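RNA of 21 AU565 libraries was extracted with TRIzol and made into TruSeq libraries, per the labels. The deposited table holds read counts per gene, which the authors made with featureCounts on hg38, per the submitters' processing notes; limma is also named there, and no version, annotation or strand setting is given. Columns were matched to samples by title, those of the primed aggregates by their treatment label, since their names carry a word that the titles lack. Columns of values not used numbered 0.

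Tests used edgeR 4.0.16 in R 4.3.3 on the deposited counts, with TMM normalization, filterByExpr by group (584 genes removed, with 0.0116% of the counts), 1 mean per group in 1 fit of all 7 groups (14 residual degrees of freedom) and robust two-sided quasi-likelihood tests, adjusted by Benjamini-Hochberg over 15969 genes in each of 10 comparisons. CPM are counts over TMM-scaled library sizes. The 4 comparisons that use monolayers carry no p for the 4 genes. The biological coefficient of variation was 5.98%, and replicate pairs differed by 2.48 to 11.5 times counting variance (chi-squared per degree of freedom, 21 pairs, genes of 40 counts or more over both). The steps were tested on simulated aggregate data, with 100 genes changed 1.5-fold and 100 changed 2-fold. The test of treated against untreated aggregates recovered 68 and 89 of them, with 6.55% of calls false. The test of the difference between the responses recovered 54 and 77, with 5.76% false, so it can miss differences of that size.

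The members and the gene lists were chosen with earlier results of these data known. Named are the 4 members, up to 4 genes of a list with the smallest p in a comparison, and the 3 genes of highest Pearson correlation with each member (log2 CPM, prior count 2) among named tested genes averaging at least 5 CPM in a group. Gene symbols are those of the table (174 genes have none), and RefSeq of GRCh38.p14 held 16370 of the 16553 identifiers. Alternatives were DESeq2 1.42.0, voom in limma 3.58.1, RLE size factors, no filter, fits of the compared groups alone, a replicate block and leaving out each library. Leaving out the 6 libraries with MYH7 at 10 CPM or more was chosen after seeing the data.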

Additional observations from a re-analysis of the deposited data

Results flagged for a closer look

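The response to the later exposure differed from that to the first, by edgeR's test of the difference itself, in 2 of the 4 genes and in 29 of 184 tested genes of the lists and neighbourhoods described above. The same test called 12.5% of all tested genes (1992 of 15969) and from 0.00% to 21.4% of each list or neighbourhood. Of these 29, the 15 given here are the 3 of smallest p in each list and the 1 of smallest p in each neighbourhood that had any. Values are log2 differences of the later from the first response in aggregates.

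Among the 4 genes STAC2 differed by 2.64 and RAPGEF3 by -0.74. In the adenosine list those given are PNP (0.27), ADA (0.66) and DPP4 (-3.29), the last at 0.0734 to 0.739 CPM. In the cyclic AMP and RAP list they are PKIA (1.16), PDE4B (-0.74) and ADCY9 (-0.31). In the STAC and calcium channel list they are JPH2 (0.78), STAC (0.84) and CACNA1H (-0.37). Among keratins they are KRT15 (0.86), KRT17 (2.17) and KRT4 (-0.44). Among neighbours they are PPFIA4 (1.40), near ADORA1, TMEM106C (0.34), near RAPGEF3, and ERBB2 (-0.55), near STAC2.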

How the results depend on the processing

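Of 264 values of the 4 genes with 1 library left out, 255 stayed, 5 came to pass and 4 no longer passed. Of 280 under the other alternatives 272 stayed, 3 moved by more than the spread of replicates, 1 came to pass and 4 no longer passed. In the tested comparisons a value stayed if it kept its side of the threshold, so values that did not pass could change sign. ADORA1 in primed aggregates, for example, went from 0.21 to -0.12 without primed replicate 1. In the comparisons that use monolayers a value stayed if it kept its direction and moved by less than the spread of replicates. No value changed sign past the threshold. With 1 library left out, the KRT23 change in primed aggregates ran from 0.40 to 0.75, the ADORA1 change in treated aggregates from 0.44 to 0.57, the RAPGEF3 change after the later exposure from -0.22 to -0.080, and the differences between the responses from -0.77 to -0.42 for KRT23 and from -0.041 to 0.42 for ADORA1. Without the libraries with MYH7, ADORA1 and RAPGEF3 changed by 1.97 and 1.99 in acutely exposed monolayers and RAPGEF3 by 1.98 in untreated aggregates against monolayers. KRT23 (0.70) in primed aggregates and ADORA1 in treated (0.51) and in primed and treated aggregates against untreated ones (0.81) no longer passed; 3 groups then had 1 library, assumed to vary like the others. In fits of only the groups compared, ADORA1 after the later exposure (0.61) no longer passed and ADORA1 between both treated groups (0.30) passed. The cause was not tested.

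Numbers of genes called moved by over 1.5 times in 4 comparisons. In acutely exposed monolayers 1799 higher and 1423 lower became 525 and 202 without the libraries with MYH7, and 4973 lower in untreated aggregates against monolayers became 3255. In primed aggregates 1836 higher and 1543 lower became 1210 and 967 in a fit of only those groups, and 1069 higher without the libraries with MYH7. Between both treated groups 508 higher and 766 lower became 892 and 1158 in a fit of only those groups, 237 to 325 higher without 1 library (treated replicates 1 to 3, primed and treated replicates 1 and 2) and 458 to 505 lower (treated replicate 1, primed and treated replicates 1 and 2). Of 2176 counts in the gene lists, 1920 stayed within 1.5 times and 256 did not.

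Same-numbered replicates mostly did not deviate together. Over 63 pairs the correlation of deviations ran from -0.148 to 0.184, with 2 over 0.1. Both were between untreated monolayers and untreated aggregates (0.139 and 0.184). The main fit does not pair the samples, and low correlations cannot exclude a pairing. With the replicate number as a block the differences between the responses were 2.65 for STAC2, -0.74 for RAPGEF3, -0.60 for KRT23 and 0.10 for ADORA1, and no call of the 4 genes changed. KRT23 rests on 48 reads over the 3 untreated monolayers, which limits its folds against that group.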
